A study of Mus musculus with 6 samples.

Results

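The gastric proton pump and ion channels and exchangers of the acid-secreting parietal cell were followed in the stomach lining of mice. The mice were labelled wild type and Lasp1 knockout. All probes named for 10 genes were taken: the H,K-ATPase subunits Atp4a and Atp4b, the potassium channel genes Kcnq1, Kcne2, Kcnj15 and Kcnj16, and the chloride pathway genes Clic6, Slc26a7, Slc26a9 and Cftr. These 10 genes, of 19057 named on the array, had 20 of its 45281 probes. Fundic mucosa of C57Bl/6Ncr mice aged 3 months gave 6 Illumina arrays, 3 labelled wild type and 3 labelled Lasp1 knockout. The labels do not describe the allele, and they do not say whether each array held a separate mouse, so p-values measure only the spread between these samples, which may be technical.

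Parietal cells acidify the stomach with the H,K-ATPase, which exchanges cytoplasmic protons for luminal potassium. Potassium channels in the same membrane return the potassium that the pump takes up, and chloride channels and exchangers supply the chloride of hydrochloric acid. On stimulation, tubulovesicles that carry the pump fuse with the apical membrane, where Lasp1, a LIM and SH3 domain protein that binds actin, is abundant. The comparison asked whether transcripts of this machinery differ between mucosa labelled Lasp1 knockout and wild type.

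Promoters are shown for the pump's catalytic subunit and for Kcnj16 and Slc26a9. The latter were taken because the Kcnj16 probe and the 3 dimmer of 4 Slc26a9 probes shared part of their array pattern. The brightest Slc26a9 probe did not (values further on). RefSeq windows on GRCm38.p6 were at hand for 6 of the 10 genes, 10 windows in all, and not for Atp4b, Kcnq1, Clic6 and Slc26a7. Each sequence covers the 250 bases before an annotated transcript start, on the + strand, 5′ to 3′. Capitals mark matches on either strand to 3 motifs. They are AGATAA, which GATA factors bind, AGGTCA, a nuclear receptor half-site, and TATAAA, the core of the TATA box. The window of Atp4a is chr7:30711959-30712208 and that of Slc26a9 is chr1:131743772-131744021. Kcnj16 has 4 annotated starts, of which chr11:110967783-110968032 (the first start) and chr11:111019335-111019584 (the third start) hold matches.
Atp4a: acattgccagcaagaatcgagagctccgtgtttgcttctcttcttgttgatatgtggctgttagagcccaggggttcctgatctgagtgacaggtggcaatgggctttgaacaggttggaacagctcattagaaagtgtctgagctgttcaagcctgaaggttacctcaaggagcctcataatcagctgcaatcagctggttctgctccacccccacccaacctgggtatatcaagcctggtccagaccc
Slc26a9: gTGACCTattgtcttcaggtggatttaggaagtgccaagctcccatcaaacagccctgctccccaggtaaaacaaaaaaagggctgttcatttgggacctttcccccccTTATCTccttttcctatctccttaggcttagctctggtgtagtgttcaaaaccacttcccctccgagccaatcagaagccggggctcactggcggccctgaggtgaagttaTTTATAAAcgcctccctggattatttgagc
Kcnj16, the first start: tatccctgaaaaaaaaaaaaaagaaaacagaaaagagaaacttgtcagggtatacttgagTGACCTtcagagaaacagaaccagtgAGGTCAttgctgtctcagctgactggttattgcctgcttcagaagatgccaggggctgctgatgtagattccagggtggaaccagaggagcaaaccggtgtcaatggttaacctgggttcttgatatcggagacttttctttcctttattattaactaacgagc
Kcnj16, the third start: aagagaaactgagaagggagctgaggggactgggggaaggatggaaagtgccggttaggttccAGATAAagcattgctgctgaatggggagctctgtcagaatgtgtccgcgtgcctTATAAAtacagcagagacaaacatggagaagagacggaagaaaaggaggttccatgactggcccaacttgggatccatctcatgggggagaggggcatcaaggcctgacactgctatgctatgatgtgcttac
AGATAA was found in 2 of the 10 windows and in 9.99% of all 32851 windows, AGGTCA in 2 and in 14.0%, and TATAAA in 2 and in 12.4%. The windows with a match belonged to Slc26a9 and Kcnj16 for each motif, but Kcnj16 alone had 4 of the 10 windows. Its AGGTCA lay before the first start, and its AGATAA and TATAAA before the third. Both genes were chosen with their array values in view, and 10 windows are too few to set a count of 2 against these shares. Nothing about shared control is read from the matches. In Slc26a9, TATAAA overlaps its own reverse complement 28 bases before the start. Which start the mucosa used was not measured, and a match is a stretch of letters, not a site of binding.

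Lasp1, measured as a check of the labels, was lower on all 3 arrays labelled knockout and stayed well above background there, at 40.6% of the wild type level. The wild type arrays gave 270957, 275068 and 177315 on its brightest probe, and the knockout arrays 88521, 111002 and 89823. The limma difference was -1.30 on the log2 scale (SE 0.21, adjusted p = 0.994), and where this probe lies relative to the deletion is not given in the sources used here. The arrays differed among themselves in transcripts of other tissues. Sums were taken over 8 pancreatic acinar genes with a probe (10 listed). Wild type replicate 3 read 4546593 and knockout replicate 3 read 383992, against 80044 to 123190 on the other arrays. Summed over 8 squamous genes, wild type replicate 2 read 367757 and knockout replicate 1 read 594014, against 14823 to 25149 elsewhere. Wild type replicate 3 gave the lowest value for 64.9% of the 22640 probes tested. The highest of 13 Y-linked probes on each array, 1020 to 1212, served as its background, since Y-linked probes stayed near the array median of 1000 in every sample.

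None of the 10 genes passed the test between genotypes. The test was limma over all 22640 probes brighter than the median probe, with a Benjamini-Hochberg adjusted p under 0.05. In it, 0.00883% of all probes passed (2 probes), so a count of 0 among 10 genes does not set them apart. Lasp1, lower on every knockout array, did not pass either, so failing to pass does not show an equal level. At an unadjusted p under 0.05 the count was also 0, against 1.73% of all probes. On none of the 16 tested probes with signal did the knockout arrays lie wholly above or below the wild type arrays. This was so for 7.19% of all probes tested (6.17% higher and 1.02% lower in the knockout). Among dimmer probes left out of the test, the groups did not overlap on Kcnj15 ILMN_2725844 (knockout higher) and Kcnq1 ILMN_1237984 (knockout lower). They overlapped on Cftr ILMN_2554279, and the share over all untested probes was not counted. Of the 9 genes with a probe above background, 7 had a higher mean in the knockout, or 77.8%, beside 76.9% of all probes. Their median log2 difference, knockout minus wild type, was 0.07, and that of all probes tested was 0.10. Adjusted p was 0.994 to 0.996 for each of the 10 (limma). Exact two-sided permutation p-values were 0.3 to 1 over the 16 tested probes with signal, where 3 against 3 arrays cannot go below 0.1.

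**Figure D1:**
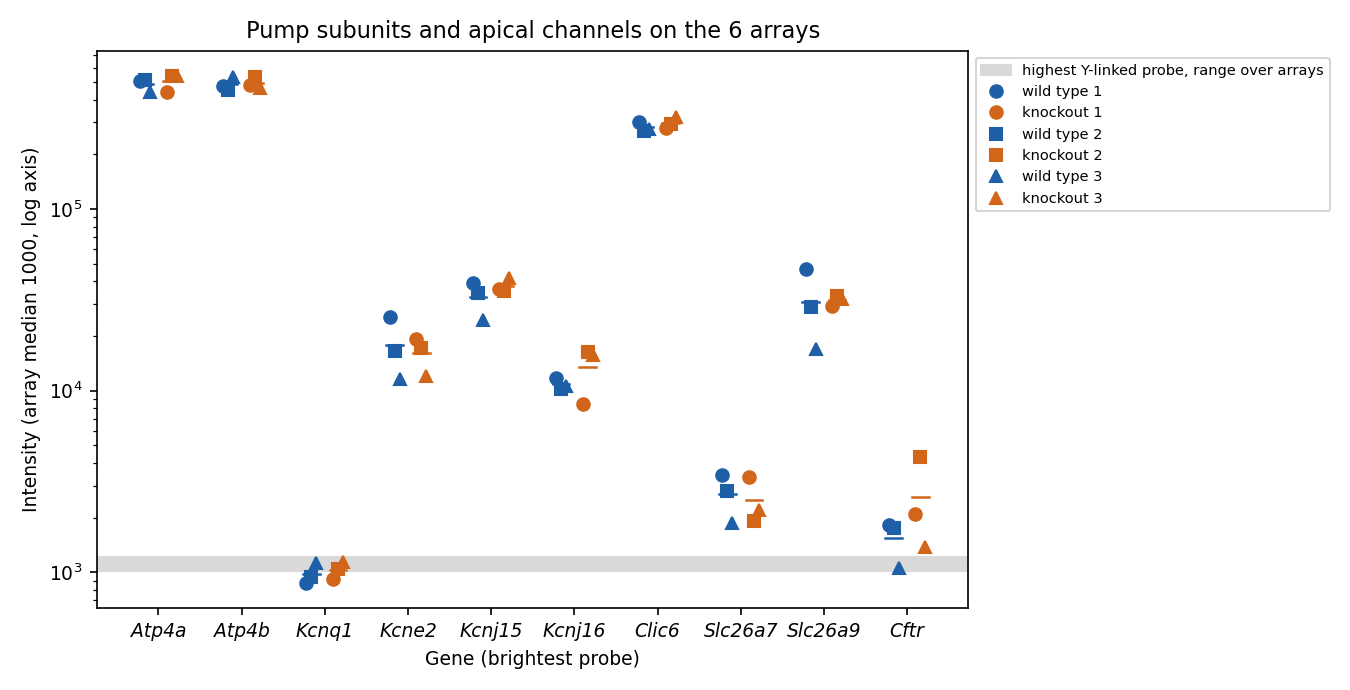
Intensity of the brightest probe of each gene on the 6 arrays (log axis, array median 1000), wild type in blue and knockout in orange, with a marker for each replicate and a bar for the group mean. The grey band is the range of the highest Y-linked probe over the arrays (1020 to 1212). The pump subunits and Clic6 vary little between arrays, Kcnq1 lies in or below the band, and 1 knockout array stands above the others for Cftr.

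The transcripts of both pump subunits were bright on every array and close between genotypes. Atp4a, the catalytic alpha subunit, gave 505989, 513259 and 438485 in wild type and 443047, 537817 and 539091 in knockout mucosa (here and below in the order of replicates 1 to 3). Wild type replicate 3 and knockout replicate 1 were its low arrays, and the groups overlapped. Group means were 485911 ± 41233 and 506652 ± 55087 (SD, n = 3 each), and the difference was 0.06 log2 (SE 0.14), or 1.04-fold with a 95% interval of 0.831 to 1.30. Atp4b, the glycosylated beta subunit that the alpha subunit needs to reach the membrane, read 477152, 454536 and 532362 in wild type and 481228, 530793 and 464845 in knockout mucosa. Its highest arrays were wild type replicate 3 and knockout replicate 2, so the low array of Atp4a was the high array of Atp4b. Atp4b means were 488017 ± 40034 and 492289 ± 34337, a difference of 0.01 log2 (SE 0.12), or 1.01-fold with an interval of 0.824 to 1.24. Both signs turned under another normalization: after cyclic loess the differences were -0.11 and -0.15. Within the arrays numbered 1 to 3 in their titles and within those numbered 4 to 6, Atp4a differed by -0.20 and 0.30, and Atp4b by 0.047 and -0.10.

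The pump probes lay near the top of the arrays' range. Undoing the authors' scaling puts dim values on whole steps of 0.1, which brings the highest probes of the 6 arrays within 1.05-fold of each other, against 1.27-fold (533888 to 677045) in the deposited values. The true size of a step cannot be settled from the values, so the unscaled intensities themselves are not given. Atp4a reached 64.8% to 94.8% of the highest intensity of its array and Atp4b 74.5% to 89.4%. Where intensity has a ceiling, a difference between bright samples is compressed. Whether the narrow interval of the pump subunits partly reflects that was not tested. Clic6 reached 40.6% to 56.5% of the maximum.

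The apical potassium channels ranged from background to bright. Kcnq1 encodes the pore subunit of the luminal potassium channel that acid secretion requires, and neither of its probes rose above background on any array. The brighter one read 877, 942 and 1117 in wild type and 920, 1040 and 1142 in knockout mucosa, below the background value of each array. The other read 933, 928 and 953, and 901, 858 and 869. No fold is given for Kcnq1, and a level at background bounds the signal of these probes, not the transcript's presence in parietal cells.

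Kcne2, the accessory subunit that lets the Kcnq1 channel stay open in acid, was well above background and variable. Wild type values were 25486, 16502 and 11588, and knockout values 19193, 17104 and 11971. Replicate 3 was the low array in both genotypes, and the groups overlapped fully. The means of Kcne2 were 17859 ± 7048 and 16089 ± 3716, a difference of -0.10 log2 (SE 0.31). The 95% interval of 0.557 to 1.56-fold leaves room for changes well past those of the pump subunits.

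Kcnj15, which encodes the inward rectifier Kir4.2, had 5 probes, of which the brightest 2 carried strong signal. Its brightest, ILMN_3125966, read 39042, 34406 and 24426 in wild type and 36154, 35445 and 41784 in knockout mucosa. The next, ILMN_1215835, read 21622, 23910 and 10311, and 24783, 23609 and 22074. On both probes wild type replicate 3 stood low and the other 5 arrays lay close together. The differences were 0.24 (SE 0.19) and 0.43 (SE 0.31) on the log2 scale, and without wild type replicate 3 that of the brightest was 0.04. The pancreatic acinar transcripts given above were highest on that array. Knockout replicate 3, the second array that carried them, was the highest on the brightest Kcnj15 probe. Their part in the difference was not tested. A further pair of Kcnj15 probes lay just above background on 5 of 6 arrays, at 1131 to 1672, with differences of 0.12 and -0.03. The last, ILMN_2725844, was too dim for the test and above background on 1 array, with 813 to 985 in wild type and 989 to 1079 in knockout mucosa.

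Kcnj16, which encodes the inward rectifier Kir5.1, a subunit that pairs with other Kir channels, differed more between knockout arrays than between genotypes. Its 1 probe read 11785, 10241 and 10578 in wild type and 8435, 16225 and 15770 in knockout mucosa. Knockout replicate 1 was the lowest of the 6 arrays and the other knockout arrays were the highest. Kcnj16 means were 10868 ± 812 and 13476 ± 4372, a difference of 0.25 log2 (SE 0.26). Each knockout array moved it by over 1.5 times. Leaving out replicate 1, 2 or 3 of the knockout gave 0.56, 0.088 or 0.11, none past the threshold (limma adjusted p of 0.974 or more). Without replicate 1 its unadjusted limma p was 0.0064, in a fit where 1014 of 22640 probes had an unadjusted p under 0.05. Knockout replicate 1 carries number 1 in its title and the other knockout arrays 4 and 6, and the labels do not say what the number means. Within the arrays numbered 1 to 3 Kcnj16 differed by -0.38, within those numbered 4 to 6 by 0.60, and with the set as a block by 0.11. In each set, one of the genotypes had a single array. Knockout replicate 1 also held the squamous signal given above and the highest smooth muscle sum (233489 over 6 genes, against 35213 to 103079 elsewhere). Without both arrays that held squamous signal, Kcnj16 differed by 0.52 log2. What part the squamous and smooth muscle transcripts had was not tested.

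**Figure D2:**
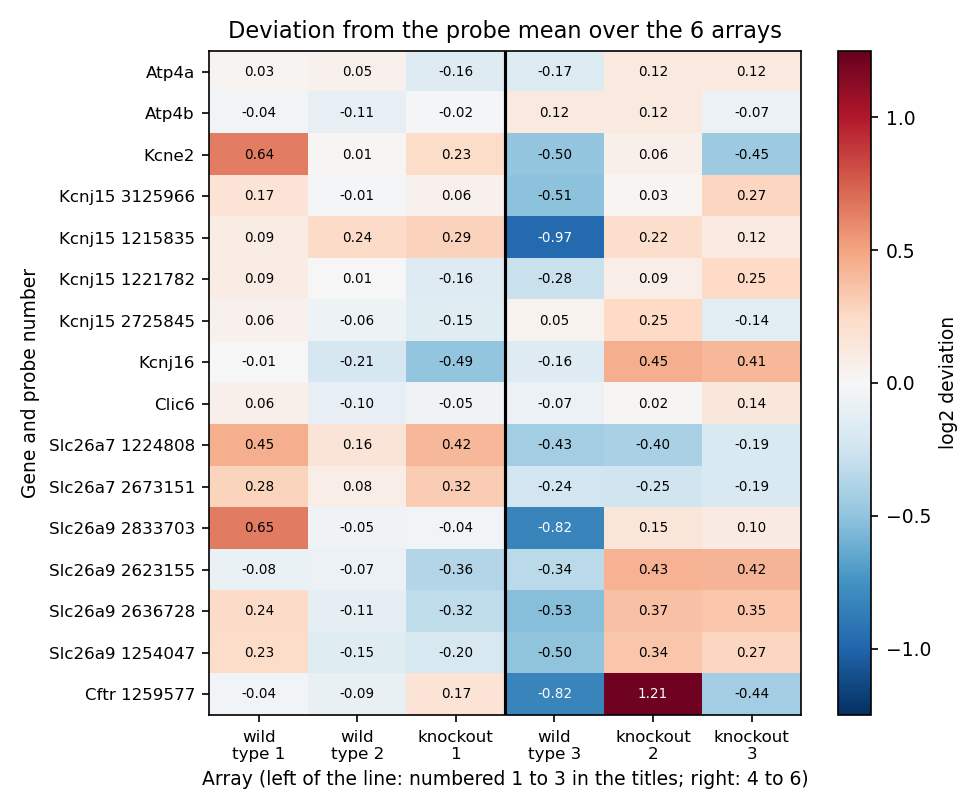
Deviation of each probe's log2 intensity from its own mean over the 6 arrays, in log2 units, red above and blue below. Arrays numbered 1 to 3 in their titles stand left of the line and those numbered 4 to 6 right of it. Kcnj16 and the 3 dimmer Slc26a9 probes are high on knockout replicates 2 and 3 and low on knockout replicate 1. Wild type replicate 3 is low for most channel probes, and is below knockout replicate 1 on Slc26a9 probes ILMN_2636728 and ILMN_1254047.

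Among the chloride genes, Clic6 was the steadiest. Clic6, a member of the chloride intracellular channel family found in parietal cells, read 301838, 269677 and 275120 in wild type and 279677, 292594 and 319738 in knockout mucosa. The highest and lowest of the 6 arrays differed by 1.19-fold, and both groups spanned most of that range. Clic6 differed by 0.07 log2 (SE 0.12), or 1.05-fold with a 95% interval of 0.867 to 1.28, and by -0.10 after cyclic loess. Over the arrays the profile of Clic6 was nearest to that of Atp4a, with a root mean square difference of 0.10 log2 between the centred values, the smallest among the 45 pairs of genes. Both profiles were nearly flat, with an SD over the 6 arrays of 0.09 log2 for Clic6 and 0.13 for Atp4a (median of tested probes 0.21). Flat profiles lie close by this measure whether or not they move together. Kcnq1, at background, was 0.14 from Clic6. In the RefSeq gene table of GRCm38.p6, Clic6 and Kcne2 lie on 1 chromosome with 5 protein-coding genes between them, and Kcnj15 follows Clic6 after 17 more.

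Slc26a9, a chloride transporter of gastric surface and parietal cells, had 4 probes that did not behave alike. ILMN_2833703, the brightest, gave 46828, 28875 and 16878 in wild type and 29040, 33095 and 31983 in knockout mucosa. The wild type arrays held both extremes, with an SD of 15074 around a mean of 30860, and the knockout arrays lay between them (31373 ± 2095). Its difference was 0.14 log2 (SE 0.34), which turned to -0.23 without wild type replicate 3 and to -0.05 after quantile normalization. The second probe, ILMN_2623155, read 11488, 11568 and 9607, and 9462, 16386 and 16300. Here knockout replicates 2 and 3 were high and knockout replicate 1 was the lowest array. The remaining probes of Slc26a9 read 1928 to 4127 with the same pair of knockout arrays highest on ILMN_2636728 and ILMN_1254047. There wild type replicate 3 was the lowest array (2220 and 1928), and wild type replicate 1 was the next highest after the pair (3788 and 3205). Differences of the 3 dimmer probes were 0.33, 0.26 and 0.28 log2 (SE 0.23 to 0.26). Within the arrays numbered 1 to 3 all 4 probes were lower in the knockout (-0.24 to -0.39), and within those numbered 4 to 6 all were higher (0.77 to 0.95). The first contrast rests on knockout replicate 1 alone and the second on wild type replicate 3 alone, which was lowest for 64.9% of all probes tested. How many of all probes turned in this way was not counted, so it is not read as particular to Slc26a9.

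The likeness of Kcnj16 and the dimmer Slc26a9 probes was seen after their values were known and is a description. The centred profiles of Kcnj16 and ILMN_2623155 differed by 0.11 log2 (root mean square over 6 arrays), the nearest of the 15 other tested probes with signal. ILMN_2636728 and ILMN_1254047 were next among them at 0.20 and 0.22, while the brightest Slc26a9 probe was at 0.46, farther than Atp4a (0.25) or Clic6 (0.28). Kcne1, a relative of Kcne2 that is no member of the set, followed a like course at 0.15, with 2505 on knockout replicate 1 and 5551 and 6224 on the other knockout arrays. Promoter windows of Kcnj16 and Slc26a9 are printed above, and no link between their matches and this likeness was tested.

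Slc26a7, an anion exchanger of the parietal cell that carries chloride and bicarbonate, separated the arrays by title number and not by genotype. Its brighter probe, ILMN_1224808, read 3433, 2804 and 1860 in wild type and 3353, 1903 and 2204 in knockout mucosa. The second, ILMN_2673151, read 1945, 1696 and 1360, and 1996, 1344 and 1398. On both, the 3 arrays numbered 1 to 3 lay above the 3 numbered 4 to 6, as on 19.3% of all probes (22.8% had sets that did not overlap in either direction). Between genotypes the differences were -0.12 (SE 0.29) and -0.09 (SE 0.21) log2. That of the brighter probe was 0.11 and 0.14 within the sets and 0.13 with the set as a block (limma adjusted p = 0.627).

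Cftr, the cAMP-activated chloride channel, had the largest difference of the 9 genes and the widest error. ILMN_1259577 read 1818, 1749 and 1053 in wild type and 2103, 4328 and 1378 in knockout mucosa. Knockout replicate 2 stood above all others, wild type replicate 3 was below background, and the remaining arrays of the groups overlapped. The difference was 0.64 log2 (SE 0.43), or 1.55-fold with a 95% interval of 0.769 to 3.14. Without knockout replicate 2 it was 0.19, without wild type replicate 3 it was 0.38, and without knockout replicate 3 it was 1.01. Because background was not subtracted, folds this close to it are understated, and taking off the 5th percentile of each array gave 1.11. A second probe, ILMN_2554279, stayed below background on all arrays (725 to 904). Ano1, another chloride channel gene, was also highest on knockout replicate 2 (8389, against 4276 to 5862 elsewhere), as were 21.4% of all probes tested.

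**Figure D3:**
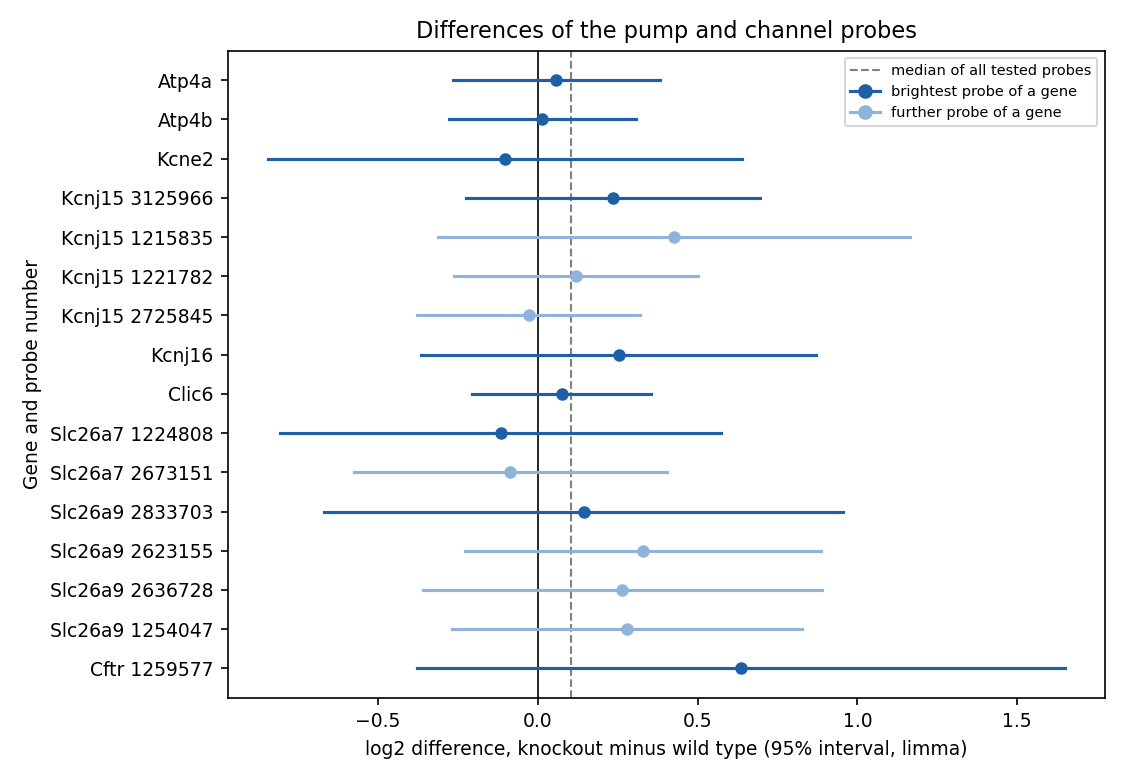
log2 difference, knockout minus wild type, of the 16 tested probes above background on at least 1 array. Lines are 95% intervals from limma (n = 3 arrays a group), dark for the brightest probe of a gene and light for its further probes. The dashed line is the median of all tested probes (0.10). Every interval includes 0 and the median, and intervals are narrowest for Clic6, Atp4b and Atp4a and widest for Cftr.

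Precision therefore differed among the members. For Atp4a, Atp4b and Clic6 the intervals of measured intensity lay within 0.824 to 1.30-fold, so a change of the size seen for Lasp1 (40.6% of wild type) falls outside them, with the limit on bright probes given above. For Cftr the interval reached from 0.769 to 3.14-fold, and for Slc26a9 from 0.629 to 1.94-fold. The brightest probes of 6 of the 9 genes with signal were lowest on wild type replicate 3, as were 64.9% of all probes tested. In a bulk mucosal sample, fewer parietal cells and less RNA per cell cannot be told apart. Parietal markers outside the 10 genes summed to 441507 to 631253 in wild type and 569440 to 661295 in knockout mucosa, over 9 of 10 listed genes that had a probe. This sum of linear intensities is carried mostly by its brightest genes, Ckb, Slc4a2 and Car2. Ckb alone read 204329 to 300060 and was lowest on wild type replicate 2. Wild type replicate 3 had the lowest sum, and none of the 9 lay below background on all arrays.

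Other genes of acid secretion gave 0 calls among the 31 tested of 37 listed (limma, 1 at an unadjusted p under 0.05). Of 10 tested genes of basolateral transport, which returns bicarbonate to the blood and brings in chloride, 8 had a higher mean in the knockout, with a median of 0.07 log2. The smallest p-values there belonged to the anion exchanger Slc4a2 (0.28, SE 0.17), the sodium-proton exchangers Slc9a4 (0.29) and Slc9a2 (0.21), and the potassium channel Kcnn4 (0.19). Receptors and their coupling proteins had a median of 0.15 over 9 genes, 7 of them higher. Their leading members were the gastrin receptor Cckbr (0.26, SE 0.21), the kinase subunit Prkaca (0.24), adenylyl cyclase Adcy6 (0.25) and the G protein gene Gnaq (0.15). All 12 tested genes of tubulovesicles and the apical membrane had a higher mean, with a median of 0.23. Mpp5, a polarity scaffold, had the smallest p (3391 ± 78 in wild type, 4137 ± 213 in knockout, 0.29 log2, SE 0.11, limma adjusted p = 0.994). Its groups did not overlap, as in 6.17% of all probes in that direction. The recycling GTPase genes Rab11a (0.34, SE 0.20) and Rab25 (0.26) and the Rab11 effector Rab11fip1 (0.20) came next. These counts and medians stand beside 76.9% of all probes with a higher mean in the knockout and a median of 0.10 for all probes, so nothing particular to the lists is read from them.

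Relatives of the channels were tested in the same fit, and 0 of 7 passed (limma, 0 at an unadjusted p under 0.05). Kcne1 differed by 0.25 log2 (SE 0.35), and Kcne3 and Kcnj9 stayed below background on all arrays. Of 6 tested chloride relatives 5 had a higher mean, led by Clic5 (0.18, SE 0.13), Ano1 (0.28) and Clic1 (0.34). The genes whose profile was nearest to the mean of Atp4a and Atp4b were Ube2b, Gm14325, Acvr1c, Rpgr and Tmem126b, with root mean square differences of 0.035 to 0.047 log2 over the 6 arrays. They were taken from 7170 bright genes, of which 191 lay within 0.1 of that nearly flat mean. Atp4a and Atp4b themselves lay 0.17 apart. They deviated in opposite directions on wild type replicate 3 (-0.17 and 0.12) and knockout replicate 3 (0.12 and -0.07), so the mean is the profile of neither subunit.

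**Figure D4:**
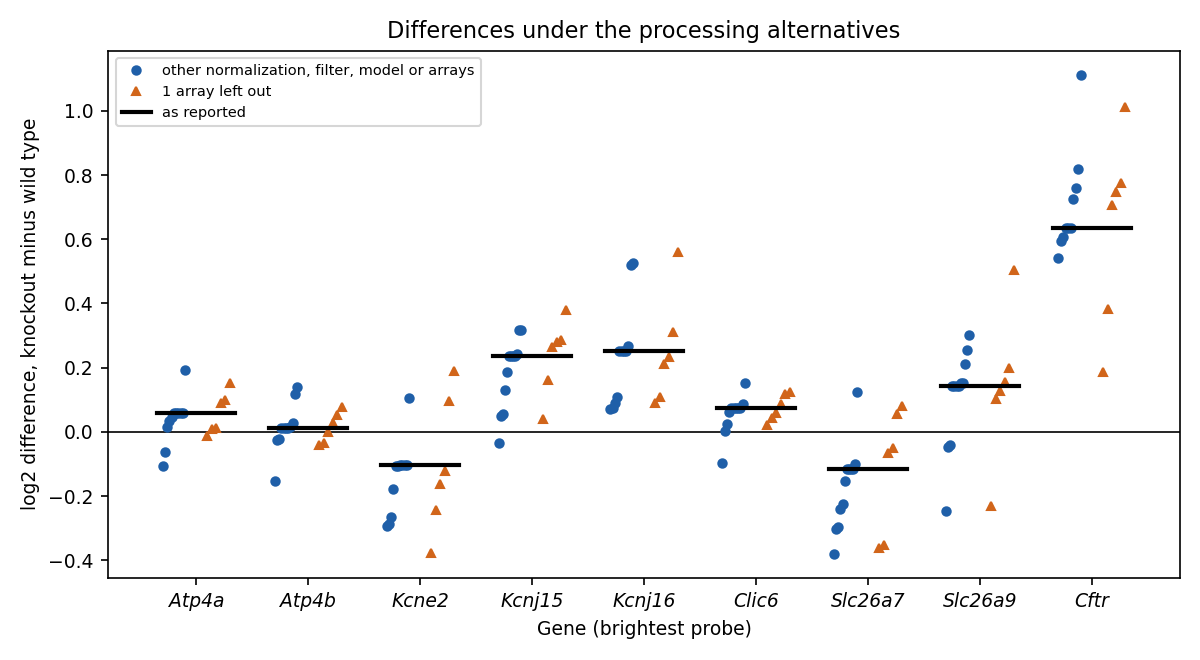
log2 difference, knockout minus wild type, of the brightest probe of the 9 genes with signal, as reported (bar), under other normalizations, filters, models or arrays (blue) and with 1 array left out (orange). Cftr and Kcnj16 stay above 0 throughout, at 0.19 to 1.11 and 0.07 to 0.56, and the other 7 genes have values on both sides of 0.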

How the data were processed

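The deposited table gives 1 linear intensity per probe and array; per the labels' protocols, biotin-labelled cRNA was made with an Ambion kit for Illumina arrays. From the values, the authors scaled each array to a median of 1000 without background subtraction. Scanner, software and filters: not given in the sources used here. Probes took their gene from the platform annotation, with current symbols looked up by Entrez number in RefSeq's GRCm38.p6 table; 34885 probes had 1 symbol, 18 several and 10378 none.

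Groups and replicate numbers came from the sample titles. Intensities were log2 transformed, the brighter 50% of probes by mean were kept, and knockout was compared with wild type with limma 3.58.1 in R 4.3.3 (lmFit, eBayes, two-sided, Benjamini-Hochberg over 22640 probes). A gene is given by its brightest probe. On simulated data the script recovered 46 of 100 changes of 2-fold and 80 of 100 of 4-fold at the threshold, with 9 false calls. The simulated noise was independent between probes, without shifts shared by an array. Many true changes in 1 set also ease the adjusted threshold, and in the real data only 2 probes passed. The rates therefore check the script and do not give the power of the comparison made here. The genes, lists and alternatives were chosen with earlier results of these data known. Named beyond the 10 genes were up to 4 genes of smallest p per pathway list, up to 3 per list of relatives, and the 5 nearest profiles; Ano1 on single arrays and Kcne1 beside Kcnj16 were picked with their values in view. The number of arrays limits the precision. Alternatives covered normalization, background, filters, variance models, blocks and left-out arrays. Python 3.11.15 with matplotlib 3.10.9 drew the plots.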

Additional observations from a re-analysis of the deposited data

How the results depend on the processing

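The count of pump and channel genes past the threshold stayed at 0 under every alternative run, including an adjusted p under 0.1. Of the 9 genes with signal, 7 changed sign under at least 1 alternative. Cyclic loess gave -0.11 for Atp4a, -0.15 for Atp4b, -0.097 for Clic6 and -0.042 for Slc26a9, and quantile normalization gave -0.046 for Slc26a9. A block for the title-number set gave -0.026 for Atp4b, 0.10 for Kcne2 and 0.13 for Slc26a7. Without both arrays with pancreatic transcripts they were -0.062 for Atp4a, -0.034 for Kcnj15 and -0.25 for Slc26a9, and without both arrays with squamous transcripts -0.021 for Atp4b. Leaving out 1 array at a time gave -0.014 to 0.15 for Atp4a, -0.042 to 0.078 for Atp4b, -0.38 to 0.19 for Kcne2, -0.36 to 0.080 for Slc26a7 and -0.23 to 0.50 for Slc26a9. The causes of these sign changes were not tested. Kcnj16 came closest to the threshold with array weights (0.53, limma adjusted p = 0.0509), a fit that gives wild type replicate 2 a weight of 38.8 and any other array at most 1.60.

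Over all probes, 2 passed as reported, 1816 with array weights, and 0 with the stricter filter, without the pancreatic pair or without the squamous pair; with 1 array left out the count was 0 to 3. With the replicate block 0 probes passed and the differences were as reported, for example 0.06 for Atp4a. Same-numbered arrays correlated in their deviations at 0.04, -0.30 and 0.53. Without the same values for differently numbered arrays, these cannot decide whether the numbers pair the samples. Other acid secretion genes past the threshold numbered 4 with array weights (Rab11a, Slc4a2, Mpp5 and Cckbr) and 0 otherwise. Signal over background limits Cftr and Slc26a7 most, and Kcnq1 could not be compared.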
